A study of Mus musculus with 8 samples.

Results

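Ch25h and Apoe are a pair of sterol-handling genes, taken by name as 2 loci of the 49868 that carry a gene name in the deposited table. They were picked because earlier work on the same 8 libraries had shown higher values in Has-tKO than in wildtype, so their own genotype difference is given as a description without a test. The libraries came from mesenchymal stem cells (MSc) of mouse femurs and tibiae, 4 wildtype (C57Bl6/J) and 4 Has-tKO, each line from its own mouse. Has-tKO mice lack Has1 and Has3 from birth and lose Has2 when Cre is activated. Together the 3 Has genes encode the enzymes that make hyaluronan, the large unsulfated sugar polymer of the matrix. Cells of either genotype received 4-hydroxytamoxifen (48 h in passages 2 and 3 of 4) and were collected on day 7 of osteogenic culture, so the drug is shared by both groups. The sources used here do not give the Cre driver or the ages of the mice.

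Ch25h, cholesterol 25-hydroxylase, sits in the endoplasmic reticulum and adds a hydroxyl group to cholesterol. Its product, an oxysterol, is known to hold back the SREBP factors that switch on cholesterol synthesis, to bind the liver X receptors (LXR), and, after further hydroxylation by Cyp7b1, to become the ligand of the migration receptor Gpr183. In macrophages the gene is known to be induced by interferon and by microbial ligands. Apoe, apolipoprotein E, carries cholesterol and other lipids out of cells and is bound by lipoprotein receptors. Macrophages make much of it, and it is a textbook LXR target.

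In GENCODE M21 (build GRCm38) Ch25h is a protein-coding gene on the minus strand of chromosome 19, from 34473778 to 34475164, with 1 transcript of 1 exon and 1387 bases. Apoe lies on the minus strand of chromosome 7, from 19696109 to 19699188, with 11 transcripts of 1 to 5 exons. Because Ch25h has no intron, spliced and unspliced RNA of this gene look alike in the reads. The 250 bases before each RefSeq start site are shown because both genes had their higher values in the same genotype. RefSeq lists 3 start sites for Apoe, and the first of them on its strand is shown. They were read from RefSeq on GRCm38.p6, on the strand of the gene, at chr19:34475149-34475398 and chr7:19699189-19699438, and capitals mark every match to the 10 motifs searched on both strands.
Ch25h: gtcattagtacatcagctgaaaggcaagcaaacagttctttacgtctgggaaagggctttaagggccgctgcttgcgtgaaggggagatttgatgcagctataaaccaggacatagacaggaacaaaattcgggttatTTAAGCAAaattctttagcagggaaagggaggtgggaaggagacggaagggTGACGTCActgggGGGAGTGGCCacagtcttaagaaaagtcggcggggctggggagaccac
Apoe: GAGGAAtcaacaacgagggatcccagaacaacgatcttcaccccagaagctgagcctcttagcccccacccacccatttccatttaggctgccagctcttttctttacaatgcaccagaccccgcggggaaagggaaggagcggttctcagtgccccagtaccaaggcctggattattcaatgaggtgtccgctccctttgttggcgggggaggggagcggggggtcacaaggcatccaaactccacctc

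The Ch25h window held the full cyclic AMP response element TGACGTCA with its first base at -61 from the start site, letters that stood in 1.62% of the 27025 RefSeq windows of this length. A C/EBP match (TTGCNNAA, -112) occurred in 9.55% of windows. A match to the loose kappaB pattern, GGG and CC with 5 bases of any kind between (-48), occurred in 45.4%, so it says little. The Apoe window shown held a single match, the PU.1 core GAGGAA at -250, which 23.1% of windows share. The windows of the other two Apoe start sites each held the kappaB pattern that Ch25h has, at -120 and at -49, and the last of them also held GAGGAA at -132. None of the 4 windows matched the other motifs, which were AP-1 (TGANTCA), the interferon element ISRE (GAAA, 2 bases of any kind, GAAA), EGR (GCGNGGGCG), the GC box GGGCGG, the sterol element SRE-1 and the LXR repeat DR4 (AGGTCA, 4 bases of any kind, AGGTCA). None of the marked matches overlap. A match describes letters and not binding, and a missing match says only that the letters are not in these 250 bases.

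Levels are FPKM (fragments normalised to transcript length and to the total of the library) as deposited, and the sequencing depth is unknown. Ch25h had 1.0, 3.57, 3.66 and 1.95 FPKM in wildtype 1 to 4 and 21.1, 11.7, 12.4 and 7.10 FPKM in Has-tKO 1 to 4. Every Has-tKO library lay above every wildtype library, Has-tKO 1 was the highest and wildtype 1 the lowest. The lowest Has-tKO value was 1.94 times the highest wildtype value. The group means were 2.54 ± 1.29 FPKM in the wildtype libraries and 13.1 ± 5.83 FPKM in the Has-tKO libraries (SD, n = 4 each), a 5.14-fold ratio. On the log2(FPKM + 1) scale the difference, Has-tKO minus wildtype, was 1.98 (SE 0.32), the 4th highest of 9916 tested genes. Within a genotype the libraries varied widely, with a coefficient of variation of 50.8% in wildtype and 44.6% in Has-tKO.

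Apoe had 31.4, 14.0, 29.0 and 16.2 FPKM in wildtype 1 to 4 and 75.7, 35.7, 43.4 and 65.6 FPKM in Has-tKO 1 to 4. The groups did not overlap as deposited, but wildtype 1 came close to Has-tKO 2. The lowest Has-tKO value was 1.14 times the highest wildtype value. The means were 22.7 ± 8.83 and 55.1 ± 18.7 FPKM (SD, n = 4 each), a 2.43-fold ratio, and the log2 difference was 1.26 (SE 0.30), the 60th highest of 9916. As a background, 12.0% of all tested genes were higher in Has-tKO without overlap. Nothing is read from the members' place in it, since this contrast chose them.

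Scaling between libraries separated the 2 genes. The median log2 difference of all tested genes was 0.16 as deposited and -0.03 after median-ratio size factors, a method that divides each library by its typical ratio to the average library. Wildtype 1 had a factor of 0.660, and the remaining 7 libraries had 0.984 to 1.14. After scaling Ch25h had 1.52, 3.31, 3.48 and 1.98 in wildtype and 18.9, 10.3, 11.2 and 6.57 in Has-tKO, still without overlap, with a log2 difference of 1.79 (SE 0.29). Scaled Apoe had 47.6, 13.0, 27.6 and 16.5 in wildtype and 67.9, 31.2, 39.3 and 60.7 in Has-tKO. Wildtype 1 thereby passed Has-tKO 2 and Has-tKO 3, and the genotypes overlapped. The scaled log2 difference of Apoe was 1.0 (SE 0.39). Among all tested genes 5.64% were higher in Has-tKO without overlap after scaling.

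**Figure D1:**
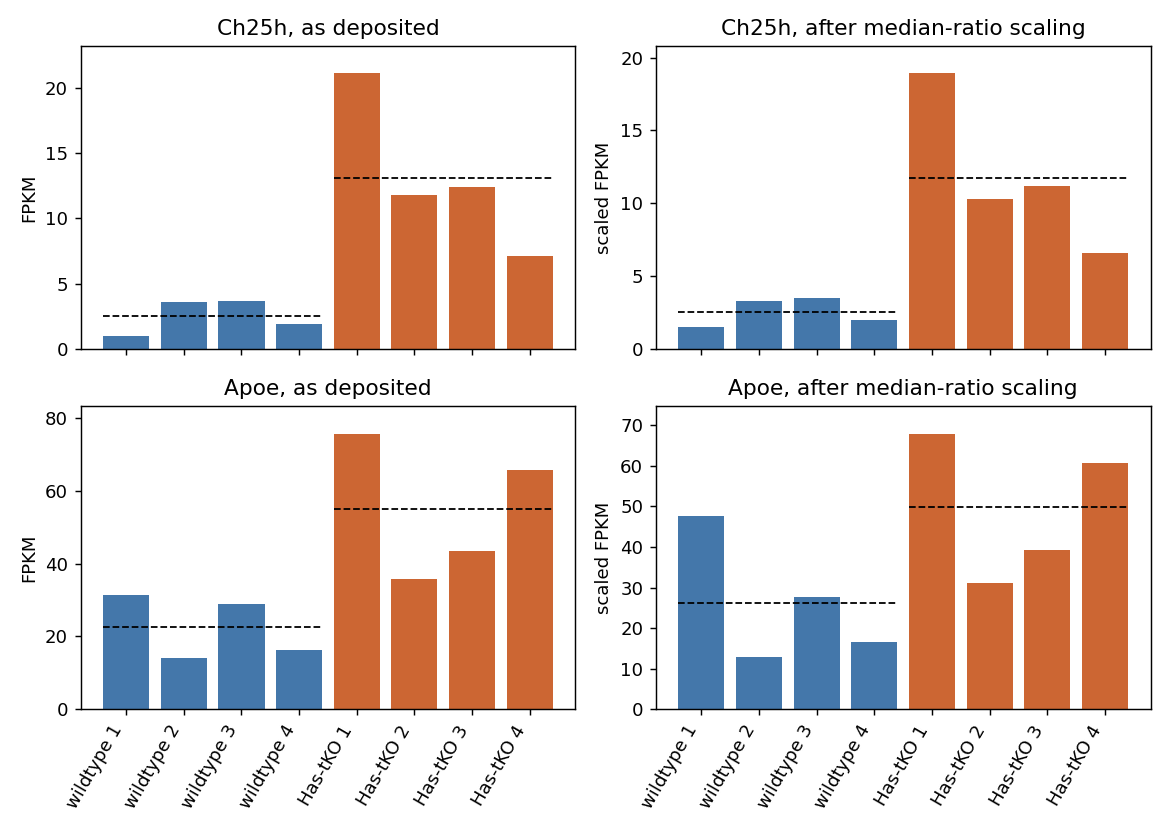
Bars give Ch25h (top) and Apoe (bottom) in each of the 8 libraries, in FPKM as deposited (left) and after median-ratio scaling (right), and dashed lines give the mean of each genotype (n = 4). Ch25h is higher in all 4 Has-tKO libraries on either scale, while scaled Apoe in wildtype 1 (47.6) exceeds Has-tKO 2 (31.2) and Has-tKO 3 (39.3).

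The 2 genes did not follow each other from library to library. Among wildtype libraries wildtype 1 was the highest for Apoe and the lowest for Ch25h. Has-tKO 4 was the lowest of its group for Ch25h and the second highest for Apoe. With the mean of each genotype subtracted, Pearson's r between them on log2(scaled FPKM + 1) was -0.17 over the 8 libraries. This is a description of 8 points that share their scaling factors, and the genotype means take part of the freedom of the points.

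Wildtype 1 stood apart from the other libraries, as its size factor shows, and unnamed loci took 61.5% of its FPKM. Has-tKO 4 came next with 56.4%, against 45.4% to 48.7% in the rest. Each of these libraries was the lowest of its genotype for Ch25h. Cell type markers were read in all libraries. Markers of the labelled cells were present, such as the mesenchymal receptor Pdgfra (12.4 to 20.6 FPKM). The osteoblast phosphatase Alpl had 121 ± 29.3 FPKM in wildtype libraries against 67.4 ± 12.8 FPKM in Has-tKO libraries (limma log2 difference -0.82, adjusted p = 0.0826, and -1.07 with adjusted p = 0.0139 after scaling). Ibsp, a bone matrix protein, had 296 ± 97.9 against 147 ± 22.6 FPKM (-0.95, adjusted p = 0.0718, and -1.21 with adjusted p = 0.0142 after scaling). Of 6 tested osteoblast markers 5 had a log2 difference below 0 and 1 above 0. None was called as deposited, and 3 had an unadjusted p under 0.05, where 16.7% of all tested genes did. These were Alpl, Ibsp and the higher Dmp1 (0.62, adjusted p = 0.261). Alpl and Ibsp were called lower after scaling, where 1.29% of all tested genes were (0.192% as deposited). After scaling 3 of the 6 were lower without overlap, where 7.60% of all tested genes were. Of 6 tested osteoclast markers 4 had a log2 difference above 0 as deposited and 2 below 0. None was called as deposited, and 3 had an unadjusted p under 0.05. These were the lower phosphatase Acp5 (-1.47, adjusted p = 0.0653), the lower Mmp9 (-1.23, adjusted p = 0.131) and the higher Tnfrsf11a (0.70, adjusted p = 0.156). After scaling Acp5 alone was called, and it was lower (-1.71, adjusted p = 0.0497). Of 14 neutrophil and lymphoid markers none reached the filter and 8 were listed at 0 in every library, among them Cd3e and Ly6g, and of 9 endothelial markers 1 passed the filter, Egfl7 (3.81 to 5.94 FPKM), while Esam reached 1.93 FPKM and Pecam1 did not exceed 0.444 FPKM. Myeloid markers were present, and the next paragraph sets them beside Ch25h and Apoe.

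Of 27 myeloid markers 22 carried a name in the table and 20 were tested, and none of the 22 was listed at 0 in any library. All 20 tested markers had a positive log2 difference, with a median of 1.0 against 0.16 over all tested genes. All 20 had an unadjusted limma p under 0.05 (15 after scaling), where 16.7% of all tested genes did (18.6% after scaling). Without overlap between the genotypes 11 of the 20 were higher and 0 lower, where 12.0% and 1.53% of all tested genes were. After scaling 6 were higher and 0 lower, where 5.64% and 7.60% of all tested genes were. The limma test with Benjamini-Hochberg adjustment called 5 of the 20 higher and none lower, where it called 1.77% of all tested genes (1.58% higher and 0.192% lower). The called markers were the fractalkine receptor Cx3cr1 (log2 difference 1.35, adjusted p = 0.0371), Cd52 of the leukocyte surface (0.87, adjusted p = 0.0454), the transcription factor Spi1 (1.06, adjusted p = 0.0458), the integrin chain Itgb2 (1.05, adjusted p = 0.0471) and the actin-binding Coro1a (0.92, adjusted p = 0.0497). After scaling 2 of the 20 were called, Cx3cr1 and Itgb2 (adjusted p = 0.0361 and 0.0350), where 2.65% of all tested genes were (1.36% higher and 1.29% lower). Each of the 5 markers was called in 1 to 3 of the 8 fits with a library left out, and none of them without wildtype 4, Has-tKO 1, Has-tKO 2 or Has-tKO 4 (adjusted p up to 0.191, for Coro1a). The macrophage growth factor receptor Csf1r had 31.4, 49.2, 74.6 and 39.9 FPKM in the wildtype libraries and 115, 84.4, 70.5 and 110 FPKM in the Has-tKO libraries (adjusted p = 0.0716). Its groups overlapped, since wildtype 3 exceeded Has-tKO 3. The lysosomal marker Cd68 was at 39.7 ± 6.05 and 54.0 ± 3.24 FPKM (adjusted p = 0.181).

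The summed FPKM of the tested myeloid markers was 438 to 763 in wildtype and 766 to 1223 in Has-tKO. In bulk RNA, more cells of a type and more RNA per cell cannot be told apart. Measured against the mean log2 level of these 20 markers in the same library, Ch25h lay at -2.48 to -1.81 in wildtype and at -2.08 to -0.74 in Has-tKO. Here Has-tKO 4 (-2.08) fell inside the wildtype range and the other 3 Has-tKO libraries lay above it. The mean of this relative level differed by 0.97 between the genotypes. Apoe against the same markers lay at -0.09 to 1.54 in wildtype and at 0.40 to 1.05 in Has-tKO, with all 4 Has-tKO libraries inside the wildtype range and a difference of 0.26 between the means. The part of myeloid cells in either gene's level was not tested. That of osteoblasts or osteoclasts, whose markers Alpl, Ibsp and Acp5 were called lower after scaling, was not tested either.

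**Figure D2:**
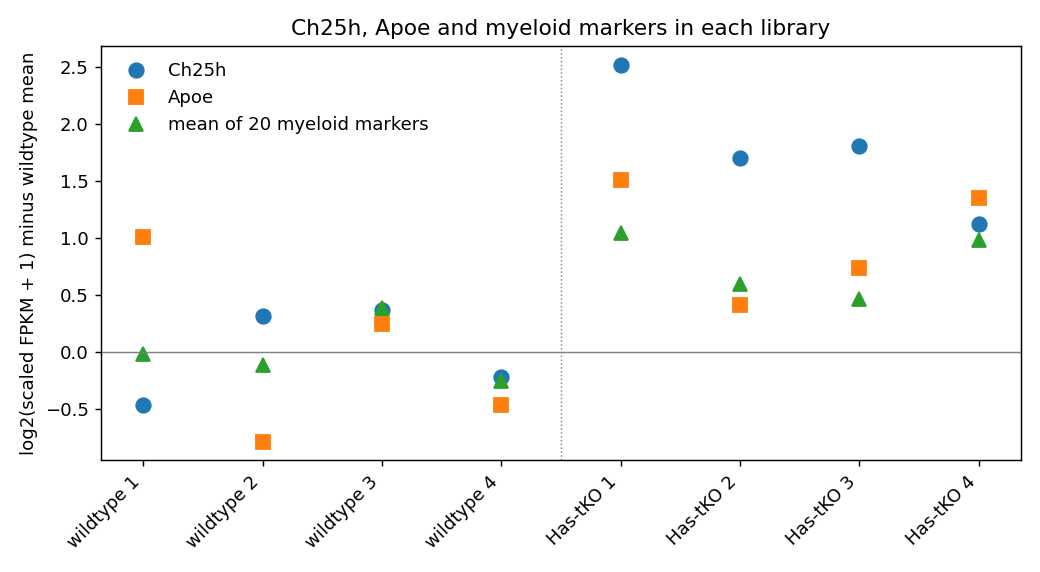
Points give, for each library, log2(scaled FPKM + 1) of Ch25h (circles), Apoe (squares) and the mean of the 20 tested myeloid markers (triangles), each minus its wildtype mean. In Has-tKO 1, 2 and 3 Ch25h stands above the marker mean by more than in any wildtype library, whereas Apoe in wildtype 1 lies 1.01 above its wildtype mean at a marker mean of -0.02.

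The 6 lists of sterol genes, 147 genes without Ch25h and Apoe, were read in the same fit to see whether the rest of the pathway moved. Of these 131 carried a name in the table and 88 passed the filter of 1 FPKM in 4 libraries. The median log2 difference of the 88 was 0.23, against 0.16 over all tested genes. The test called 3 higher and 1 lower, which is 4 of 88 beside a background of 1.77%, and the same counts of 3 and 1 came after scaling. The 4 called as deposited were Gpr183, Mertk, Cd5l and Vldlr, and after scaling Abcg1 was called and Cd5l was not. Without overlap between the genotypes 11 of the 88 were higher and 2 lower, where 12.0% and 1.53% of all tested genes were, and after scaling 8 were higher and 5 lower, where 5.64% and 7.60% were.

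**Figure D3:**
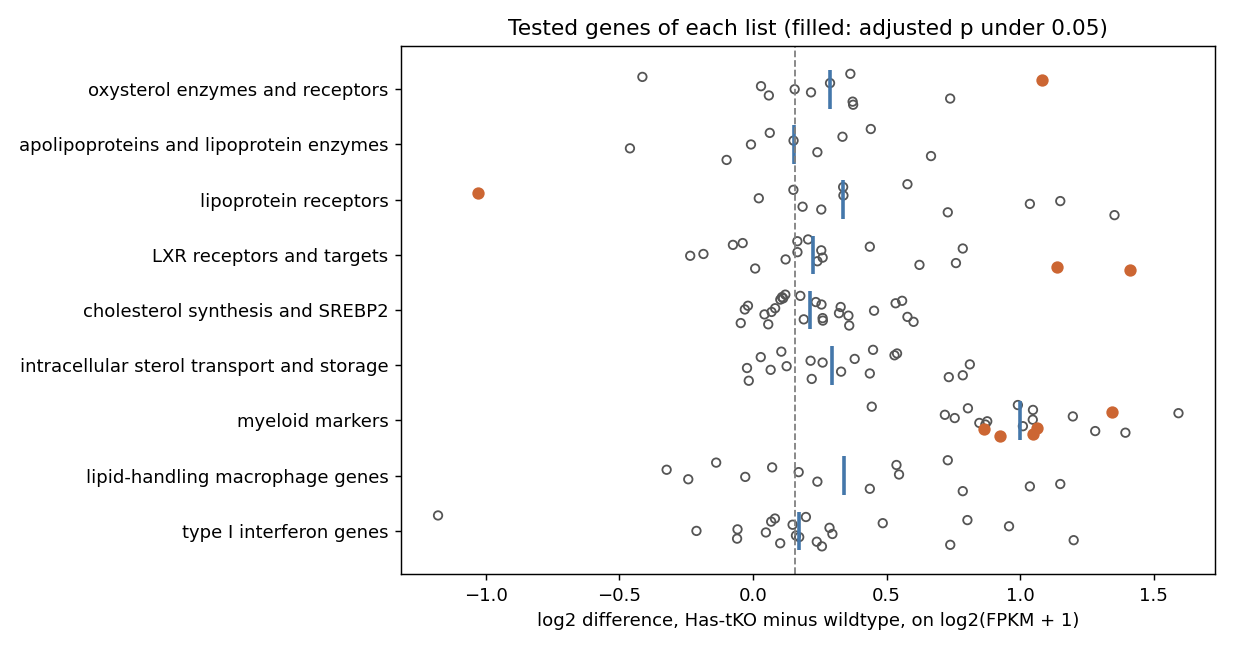
Each point is a tested gene of a list, placed by its log2 difference (Has-tKO minus wildtype, on log2(FPKM + 1)), filled where the adjusted p is under 0.05. Blue bars mark the median of each list and the dashed line the median of all tested genes (0.16), and of the 9 lists the myeloid markers have the highest median (1.0).

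The receptor at the end of the oxysterol route, Gpr183, was called higher in Has-tKO. Gpr183, which guides immune cells along gradients of dihydroxylated oxysterols, had 0.863, 1.79, 2.75 and 1.25 FPKM in the wildtype libraries and 5.71, 5.47, 3.79 and 3.23 FPKM in the Has-tKO libraries. The groups did not overlap, and Gpr183 rose by a log2 difference of 1.08 (SE 0.24, limma adjusted p = 0.0434, and 0.91 with adjusted p = 0.0423 after scaling). The call is fragile, because it was kept in 1 of the 8 fits that left out a library, the fit without wildtype 3 (adjusted p = 0.0140). In the other 7 fits the adjusted p was 0.0513 to 0.168. Gpr183 is itself known from leukocytes, whose markers also had higher values in Has-tKO, and their part in it was not tested.

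The enzymes between Ch25h and Gpr183, and those of parallel oxysterol routes, gave no call. Cyp7b1, the hydroxylase that acts on the product of Ch25h, had 6.75 ± 1.61 FPKM in the wildtype libraries and 8.93 ± 1.73 FPKM in the Has-tKO libraries (log2 difference 0.36, limma adjusted p = 0.386). Its groups overlapped, with Has-tKO 4 (6.39 FPKM) below 3 wildtype libraries. Cyp39a1, which hydroxylates oxysterols toward bile acids, was lower in every Has-tKO library on either scale, with 3.01 ± 0.565 against 2.0 ± 0.271 FPKM, but did not pass (-0.41, adjusted p = 0.205, and -0.60 with adjusted p = 0.0567 after scaling). It was the one tested member of the list with a difference below 0 as deposited. The mitochondrial sterol hydroxylase Cyp27a1 stayed between 0.557 and 1.20 FPKM in all 8 libraries and the neuronal Cyp46a1 between 0.492 and 1.54 FPKM, too low for the filter. Cyp7a1, the bile acid enzyme of liver, was listed at 0 everywhere. In all, 1 of 11 tested oxysterol genes was called, Gpr183, where 1.77% of all tested genes were. Apart from Gpr183, Cyp7b1 and Cyp39a1, the tested members were Osbp and genes of its Osbpl family, named as oxysterol-binding proteins. The count and the median of the list therefore describe mostly these binding proteins and not the enzymes. The median log2 difference of the list was 0.29 against 0.16 over all tested genes, and 0.10 against -0.03 after scaling.

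Cholesterol synthesis, which the product of Ch25h is known to restrain, showed no called gene. Of 26 tested enzymes, SREBP2 targets and regulators, limma called none with or without scaling, and 1 had an unadjusted p under 0.05 (2 after scaling), where 16.7% of all tested genes did (18.6% after scaling). Log2 differences ran from -0.05 to 0.60 as deposited and from -0.28 to 0.37 after scaling. Sqle, the squalene epoxidase, had 3.59 ± 1.19 and 5.62 ± 1.81 FPKM (0.53, adjusted p = 0.304). Insig1, the sterol sensor that retains SREBP in the endoplasmic reticulum, had 9.83 ± 4.39 and 14.2 ± 2.27 FPKM (0.60, adjusted p = 0.357). Wildtype 1 was low for it (3.56 FPKM), and the other 3 wildtype libraries had 10.7 to 13.8 FPKM. Srebf2, the factor itself, lay at 17.9 ± 2.61 and 20.4 ± 2.11 FPKM (0.19, adjusted p = 0.579, and -0.06 after scaling).

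Among 18 tested LXR receptors and targets, 2 rose and none fell, where 1.58% of all tested genes rose and 0.192% fell. The list median was 0.22 against 0.16 over all tested genes. Mertk, a receptor for the uptake of dying cells, had 2.94, 4.79, 6.18 and 4.41 FPKM in the wildtype libraries and 15.7, 9.18, 9.78 and 10.3 FPKM in the Has-tKO libraries (log2 difference 1.14, SE 0.22, limma adjusted p = 0.0268). Cd5l, a protein secreted by macrophages, had 3.21, 3.15, 10.0 and 6.20 FPKM in the wildtype libraries and 19.1, 12.5, 13.8 and 16.1 FPKM in the Has-tKO libraries (1.41, SE 0.29, adjusted p = 0.0362). Neither gene's groups overlapped, and wildtype 3 was the highest wildtype library for both. After scaling Mertk was called (adjusted p = 0.0285) and Cd5l was not (1.18, adjusted p = 0.0549), but Abcg1 was. Each of Mertk and Cd5l was called in 2 of the 8 fits with a library left out, those without wildtype 1 and without wildtype 3, and their adjusted p reached 0.115 and 0.147 in the others. Macrophages use both genes, their markers were higher in the same genotype, and their part in these results was not tested.

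The cholesterol exporters and the LXR genes themselves varied less. Abcg1, which loads cholesterol onto lipoproteins, had 4.17, 7.81, 8.18 and 6.72 FPKM in the wildtype libraries and 13.8, 12.6, 10.9 and 11 FPKM in the Has-tKO libraries. These groups did not overlap (log2 difference 0.79, limma adjusted p = 0.0651), and the gene was called after scaling (0.55, adjusted p = 0.0355). Abca1, the exporter that lipidates apolipoproteins, had 27.4 ± 5.62 and 37.2 ± 5.10 FPKM (0.44, adjusted p = 0.241). The receptor Nr1h3 was at 2.74 ± 0.804 and 3.14 ± 0.631 FPKM (0.17, adjusted p = 0.692), and the LXR-responsive lipid factor Srebf1 at 15.5 ± 0.631 and 17.6 ± 1.70 FPKM (0.17, adjusted p = 0.585). After scaling the differences of Nr1h3 and Srebf1 were -0.02 and -0.08.

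On the Apoe side, the lipoprotein receptors held the called gene that fell. Vldlr, a receptor that binds Apoe-rich particles, had 6.43, 8.58, 7.73 and 9.94 FPKM in the wildtype libraries and 3.47, 3.87, 3.98 and 2.61 FPKM in the Has-tKO libraries. All 4 Has-tKO libraries lay below all wildtype libraries, and Vldlr fell by 1.03 on the log2 scale (SE 0.18, limma adjusted p = 0.0181), and by 1.24 after scaling (adjusted p = 0.00998). It was called in 5 of the 8 fits with a library left out, and not without wildtype 4 (adjusted p = 0.0826), Has-tKO 1 (0.0838) or Has-tKO 4 (0.0522). The called myeloid markers went the other way, and the osteoblast markers Alpl and Ibsp and the osteoclast marker Acp5, called after scaling, went the same way as Vldlr. As deposited 4 of the 6 tested osteoclast markers and 1 of the 6 tested osteoblast markers, Dmp1, had log2 differences above 0. The part of any of these cell types in the fall was not tested.

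The other receptors did not pass. Lrp1, a large receptor that clears Apoe remnants, had 184 ± 47.3 and 227 ± 25.2 FPKM (log2 difference 0.34, limma adjusted p = 0.423). Trem2, a macrophage receptor that binds Apoe, had 16.1 ± 3.68 and 27.2 ± 5.85 FPKM (0.73, adjusted p = 0.0917, and 0.48 with adjusted p = 0.378 after scaling). The scavenger receptors Stab1 (1.35, adjusted p = 0.0781) and Msr1 (1.04, adjusted p = 0.0926) had log2 differences above 1 without passing. Of 12 tested receptors, Vldlr alone was called and 6 had an unadjusted p under 0.05 (5 after scaling), where 16.7% of all tested genes did (18.6% after scaling). The list median was 0.34, against 0.16 over all tested genes, of which 1.77% were called.

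No other apolipoprotein or lipoprotein enzyme was called. Limma called 0 of 9 tested genes on either scale, where 1.77% of all tested genes were called as deposited and 2.65% after scaling. As deposited 2 of the 9 had an unadjusted p under 0.05, where 16.7% of all tested genes did. The lipase inhibitor Angptl4 had 5.09 ± 0.458 and 8.83 ± 2.18 FPKM (log2 difference 0.67, adjusted p = 0.0841), and Apobr, a receptor for triglyceride-rich particles, 1.85 ± 0.578 and 2.84 ± 0.522 FPKM (0.44, adjusted p = 0.240). Clu, the other abundant apolipoprotein of many tissues, had 75.4 ± 14.0 and 55.3 ± 14.8 FPKM (-0.46, adjusted p = 0.300), with overlapping groups. Storage and transport inside the cell gave 0 called of 18, and 1 after scaling, Abcg1. As deposited 4 of the 18 had an unadjusted p under 0.05, beside the same 16.7% of all tested genes. Gramd1b, which carries sterol from the plasma membrane, had 2.41 ± 0.889 and 4.93 ± 1.28 FPKM (0.81, adjusted p = 0.0779). The esterifying enzyme Soat1 had 13.0 ± 4.88 and 18.2 ± 0.962 FPKM (0.54, adjusted p = 0.303), and the lysosomal carrier Npc2 36.9 ± 5.79 and 39.6 ± 4.70 FPKM (0.11, adjusted p = 0.781, and -0.15 after scaling).

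**Figure D4:**
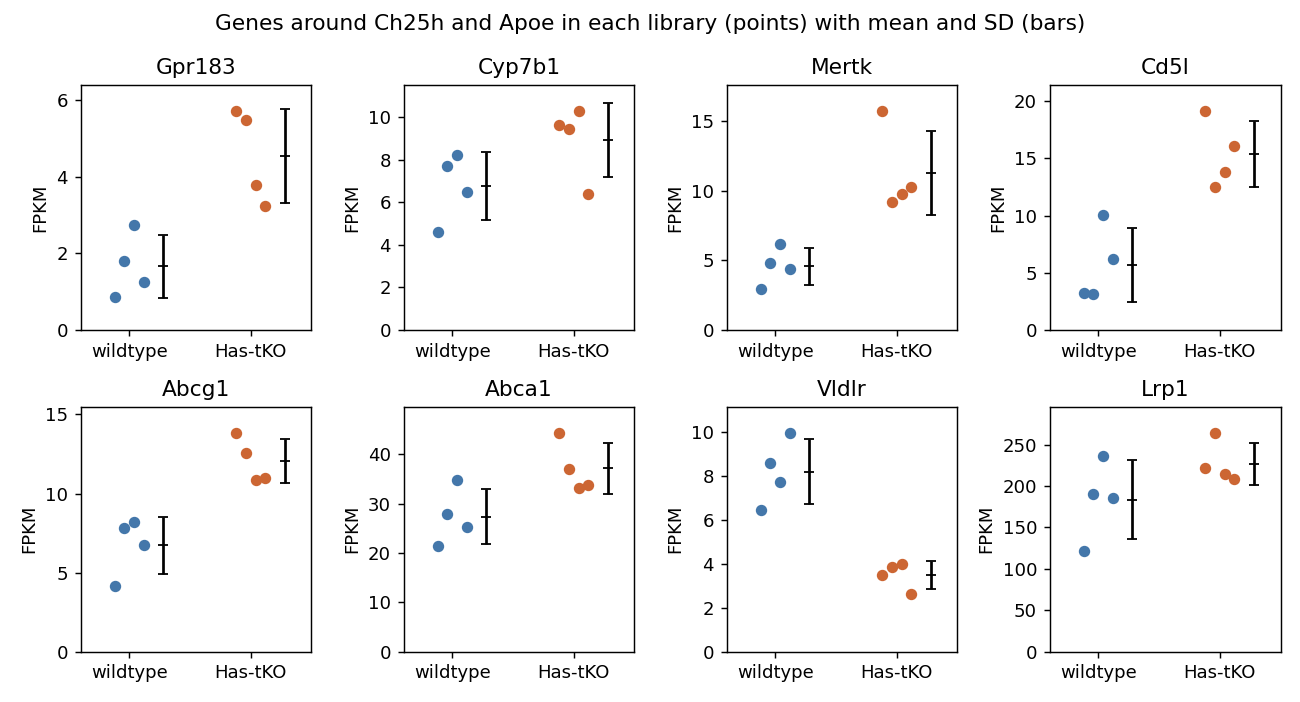
Points give FPKM as deposited in the 4 wildtype and 4 Has-tKO libraries for 8 genes around Ch25h and Apoe, with mean and SD beside them. Gpr183, Mertk, Cd5l and Abcg1 are higher and Vldlr is lower in every Has-tKO library, while Cyp7b1 and Abca1 overlap between the genotypes.

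A list of 14 tested genes that lipid-loaded macrophages use had no called gene as deposited and 1 after scaling, Abcg1. Over all tested genes 1.77% were called as deposited and 2.65% after scaling. As deposited 6 of the 14 had an unadjusted p under 0.05, where 16.7% of all tested genes did, and the list median was 0.34. In it the fatty acid scavenger receptor Cd36 had a mean of 25.2 FPKM in the wildtype libraries and 53.1 FPKM in the Has-tKO libraries (log2 difference 1.15, limma adjusted p = 0.0784). Interferon genes, a class to which Ch25h belongs, gave no call among 21 tested and a median of 0.17, next to the 0.16 of all tested genes. Of the 21, 4 had an unadjusted p under 0.05 (2 after scaling), where 16.7% of all tested genes did (18.6% after scaling). Irf1, an early interferon-response factor, had 3.34 ± 0.661 and 6.78 ± 2.57 FPKM (0.80, adjusted p = 0.0908), and the chemokine Cxcl10 0.780 ± 0.456 and 3.52 ± 2.47 FPKM (1.20, adjusted p = 0.109). Irf7, the amplifier of the interferon response, had 45.5 FPKM in Has-tKO 1 but 9.63 and 4.78 FPKM in Has-tKO 3 and 4, against 9.64 to 18.9 FPKM in wildtype (0.08, adjusted p = 0.947). Isg15, a ubiquitin-like interferon product, had 37.9, 8.47 and 8.88 FPKM in Has-tKO 1 to 3, was listed at 0 in Has-tKO 4, and reached 32.2 FPKM in wildtype (adjusted p = 0.496). Has-tKO 1 was the highest library for Irf7, Ch25h and Apoe on either scale. For Isg15 it was the highest as deposited, but after scaling wildtype 1, the library lowest in Ch25h, was higher (48.9 against 34 scaled FPKM).

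The genes most like Ch25h over the 8 libraries were found by the root mean square difference between log2(scaled FPKM + 1) profiles, each with its own mean subtracted. They were the chemokine Ccl3 (0.19), the lectin receptor Clec4e (0.31), the receptor inhibitor Errfi1 (0.35), the growth factor Ereg (0.38) and the itaconate-making enzyme Acod1 (0.38). By the same measure Apoe stood at 0.87 from Ch25h, at rank 1209. With the genotype means subtracted, the highest Pearson r with Ch25h over the 8 libraries were those of Ifi204 (0.998), Gvin2 (0.990), Rnf14 (0.980), Samd9l (0.976) and Tdrd7 (0.976). Ifi204 had 2.87, 9.11, 9.12 and 5.18 FPKM in the wildtype libraries and 13.6, 7.45, 7.31 and 3.94 FPKM in the Has-tKO libraries. It kept the order of Ch25h nearly intact inside each genotype without the step between genotypes (log2 difference 0.26, limma adjusted p = 0.737). These values are the extremes of 9916 genes over 8 libraries and carry no test.

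Nearest to Apoe by profile were a locus with the tRNA name mt-Tl1, the leukocyte adaptor Hcls1 (0.28), a locus with the microRNA name Mir99b, the Fc receptor chain Fcer1g (0.31) and the hexokinase Hk3 (0.33). The content of the 2 loci with small RNA names is not known from the table. Hcls1 had 12.5, 8.81, 13.4 and 7.75 FPKM in the wildtype libraries and 23.2, 17.1, 18.3 and 30.6 FPKM in the Has-tKO libraries. The likeness was measured with the genotype step included, so no test of that step is given for these genes. Within genotypes the highest r with Apoe were those of Nudt13 (0.980), Becn1 (0.979), Trim8 (0.967), Map3k5 (0.960) and Pwp2 (0.959).

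The neighbours of the 2 genes on their chromosomes were read because an assembled locus can take up reads from the next gene. On GRCm38 the gene after Ch25h is Lipa and the gene before it is Fas, and neither name stands in the table, so they were not analysed here. Whether the Ch25h locus took up reads of Lipa or Fas was therefore not tested. Ifit2, an interferon-induced gene a little further on, had 3.36 ± 1.45 and 4.45 ± 3.53 FPKM (log2 difference 0.20, limma adjusted p = 0.813), Acta2, the smooth muscle actin, 91.3 ± 31.4 and 167 ± 46.5 FPKM (0.90, adjusted p = 0.118), and Stambpl1, a deubiquitinase, 1.43 ± 0.365 and 1.97 ± 0.213 FPKM (0.30, adjusted p = 0.371). Ankrd22, Ifit1bl1 and Ifit1bl2 stayed at or below 0.434 FPKM.

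Beside Apoe, Apoc1 was listed at 0 in all 8 libraries and Apoc2 did not exceed 0.896 FPKM. On the other side the mitochondrial import pore Tomm40 had 5.26 ± 0.542 and 7.36 ± 0.998 FPKM (log2 difference 0.41, limma adjusted p = 0.197), Nectin2, an adhesion molecule, 2.18 ± 0.540 and 3.04 ± 0.403 FPKM (0.36, adjusted p = 0.312), and Bcam, a laminin receptor, 1.57 ± 0.198 and 1.51 ± 0.364 FPKM (-0.04, adjusted p = 0.918). Relb, an NF-kappaB subunit 6 coding genes away, was the neighbour that passed. It had 4.25, 7.38, 7.01 and 5.59 FPKM in the wildtype libraries and 14.4, 11.5, 14.6 and 14.9 FPKM in the Has-tKO libraries, and rose by a log2 difference of 1.09 (SE 0.18, adjusted p = 0.0179, and 0.86 with adjusted p = 0.0129 after scaling). It was not called without wildtype 4, Has-tKO 1 or Has-tKO 4, where its adjusted p reached 0.0853.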

How the data were processed

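RNA of 8 MSc cultures was depleted of ribosomal RNA and made into Nextera libraries, which keep no strand, per the labels' protocols. The authors deposited 1 table of FPKM for 76557 loci. Per the submitters' processing notes bcl2fastq, fastp, HISAT2, StringTie and DESeq2 were used, with GRCm39 and hg38 named as builds. The sources used here give neither versions nor how transcripts were combined per locus. No counts were used, so the depth and the counting error are unknown.

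Columns were matched to libraries by the names in the header. Of the named loci, the 9916 that reached 1 FPKM in 4 or more libraries were tested on log2(FPKM + 1) with limma 3.58.1 (intensity trend, R 4.3.3, two-sided, Benjamini-Hochberg, threshold 0.05), which understates changes near 1 FPKM. Median-ratio size factors came from 19489 loci above 0 in every library. The code was first tested on simulated data. Other alternatives were the pseudocount, the filter, array weights, the replicate number and left-out libraries.

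The members and the 15 gene lists were chosen with earlier results of these data known. Of 294 listed genes 50 have no locus of that name and were not analysed here, and some results are not reported here. Named were Ch25h and Apoe, called members of the described lists (at most 6, or the 2 with the smallest p where none was called), fixed anchor genes that the filter kept, the 5 genes most like each member by 2 measures, and 3 neighbours on either side in RefSeq (GRCm38.p6, used for order only). Cyp27a1, Cyp39a1, Cyp46a1, Cyp7a1, Stab1, Msr1, Cd3e, Ly6g, Pecam1, Egfl7, Esam, Pdgfra, Alpl, Ibsp, Dmp1, Acp5, Mmp9 and Tnfrsf11a were named after their values were seen.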

Additional observations from a re-analysis of the deposited data

Results flagged for a closer look

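Among 124 groups of 4 libraries (the tested genes named by the rule, in each genotype), 3 had a library farther from the others than Dixon's 95% limit for 4 values, where chance flags about 1 in 20. Mertk was high in Has-tKO 1 (15.7 FPKM, gap to the next library 0.8292 of the range of its group). Srebf2 was high in Has-tKO 2 (23.6 FPKM, against 19.3 to 19.4 in the other 3, gap 0.9735). Relb was low in Has-tKO 2 (11.5 FPKM, against 14.4 to 14.9, gap 0.8684). Neither Ch25h nor Apoe was among them in either genotype.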

How the results depend on the processing

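Ch25h and Apoe were higher in Has-tKO under each of the 16 alternatives run. Their deposited values did not overlap between the genotypes, so no alternative without scaling could have turned the sign. The direction was therefore not tested by them, and only the size of the difference is read. The log2 difference of Ch25h ran from 1.73 to 2.22 with 1 library left out and was 1.22 with a pseudocount of 5, which shrinks low values by construction. That of Apoe ran from 1.07 to 1.44. Of all tested genes 176 were called, against 111 with a pseudocount of 0.1, 276 with 5, 2 without a filter (where every named locus above 0 in any library was tested), 766 with array weights, 358 without wildtype 1 and Has-tKO 4, and 10 to 349 with 1 library left out, the lowest without wildtype 4 and the highest without wildtype 1. After scaling 135 were called higher and 128 lower (157 and 19 as deposited). Of the sterol genes 4 were called, against 2 with a pseudocount of 0.1, 0 without a filter, 15 with array weights, and 0 to 12 with 1 library left out (0 without wildtype 4, Has-tKO 1 or Has-tKO 4, and 12 without wildtype 3). The cause was not tested. The depth is unknown and sets no limit that can be stated.

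For uncalled genes the sign of the log2 difference turned in 22 of 672 refits. With scaling it was -0.059 for Srebf2, -0.016 for Nr1h3, -0.082 for Srebf1, -0.15 for Npc2, -0.16 for Irf7 and -0.014 for Becn1. With array weights it was -0.067 for Nr1h3 and 0.015 for Bcam. Without wildtype 1 and Has-tKO 4 it was -0.099 for Nr1h3, 0.11 for Isg15 and 0.038 for Bcam. With 1 library left out it ran from -0.0075 to 0.18 for Npc2, from -0.44 to 0.56 for Irf7, from -0.026 to 0.52 for Ifi204, from -0.19 to 0.42 for Ifit2 and from -0.13 to 0.020 for Bcam. None of the 17 called genes named turned sign, but the call was lost in 120 of their 266 refits.

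The replicate numbers did not pair the libraries, which came from different mice: same-numbered libraries had correlations of deviations of -0.08, 0.31, -0.12 and -0.06. With the replicate block 147 genes and 4 sterol genes were called.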
